A study of Homo sapiens with 6 samples.

Results

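Genes of the ubiquitin and proteasome system were followed in AGS, an established cell line of human gastric adenocarcinoma, after 24 h of vehicle or of saikosaponin-D (SSD), a plant saponin of Radix Bupleuri. The members were the genes of the deposited expression table annotated there to the KEGG proteasome or ubiquitin-mediated proteolysis pathway, or to the gene ontology term for protein ubiquitination. Genes annotated also to protein processing in the endoplasmic reticulum, lysosome, autophagy or spliceosome pathways, ribosomal protein genes, SQSTM1 and DDX58 were set aside. This rule kept 29 of the 1099 genes in the table. It removed 3 genes (SELENOS, RBX1 and RPS27A). No measured value entered the rule, but the table itself had been chosen on the outcome: its 1099 genes are those with the smallest p-values among 11289 genes that the authors tested between the same libraries. A member therefore had to have a small p between vehicle and SSD to be listed at all, and the members are a selected sample of the ubiquitin system.

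PolyA RNA was sequenced from 6 libraries, 3 of wild-type AGS cells with vehicle and 3 of wild-type AGS cells with SSD. The label of each sample names AGS and SSD or vehicle, whereas the shared protocol text names another cell line (C4-2B) and a compound called L14-8 at 10 μM. The headers of the deposited SSD values name AGS, with numbers that match that compound and 10 μM. The study's methods give a lower SSD dose, so the dose is not settled. Nothing in the labels states that the 3 libraries of a group came from separate cultures, and p-values then measure only the spread between these libraries. That spread was estimated from the table's genes alone. Genes chosen for a small p can have a spread that is low by accident, so the p-values given here may be too small. Levels are given in TPM, each gene's share of a library's reads corrected for gene length. Of 11 gastric epithelial markers the table lists 1 (TFF1, at 70.0 to 81.5 TPM with vehicle and 33.3 to 53.5 TPM with SSD), of 6 prostate markers 0, of 5 fibroblast markers 1 (COL1A1, at 12.8 to 15.8 and 10.0 to 14.9) and of 5 leukocyte markers 0. These lists could not check the cell line, since the table leaves out genes with a larger p. Counts summed over the table ran from 3084338 to 4640117 per library and cover part of each library only, with 30.1% to 33.1% of each library's TPM in these genes.

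Ubiquitin is a small protein that cells join to other proteins in a chain of 3 steps: an E1 enzyme activates it, an E2 enzyme carries it, and an E3 ligase places it on a chosen substrate. Most E3 ligases belong to the RING class, in which a zinc-binding domain recruits the loaded E2, and the cullin-RING ligases are RING enzymes built from exchangeable substrate receptors. Chains of ubiquitin can send a protein to the 26S proteasome, whose 20S core is the proteolytic barrel and whose 19S regulator holds the ATPases that unfold substrates. Deubiquitinating enzymes remove ubiquitin, and several E2 and E3 genes are induced by interferon.

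SSD-treated cells had more RNA of 9 members and less RNA of 4. KLHL24, CUL7, UBE2Q2, TRIM21, TRIM41, RNF103, UBE2L6, DCAF11 and OS9 rose, by 0.29 to 0.66 on the log2 scale, and MYLIP, PSMA2, CBLC and ELOC fell, with log2 fold changes of -0.49 to -0.21. Changes are of SSD over vehicle in estimated counts, tested with edgeR's quasi-likelihood test, and a gene was called at an adjusted p under 0.05 after Benjamini-Hochberg adjustment over 11289 genes. Libraries were set on a common scale by the ratio of their counts to their TPM, which reflects all genes of a library. Over the whole table, 32.3% of genes were called higher and 18.4% lower, against 31.0% and 13.8% of the members, so these counts lie near the table's own shares and are no result about the members. With TMM scaling within the table, 9 members were higher and 2 lower, beside 35.0% and 7.92% of the table. Without vehicle replicate 2, 4 members were higher, beside 10.0% of the table, and without vehicle replicate 1, 2 or 3 or SSD replicate 2 the number lower was 2, 1, 0 or 0, beside 13.5%, 5.46%, 6.55% and 6.64%. All 29 members passed the filter on low counts, with mean counts from 327 (MYLIP) to 6861 (UBA2).

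**Figure D1:**
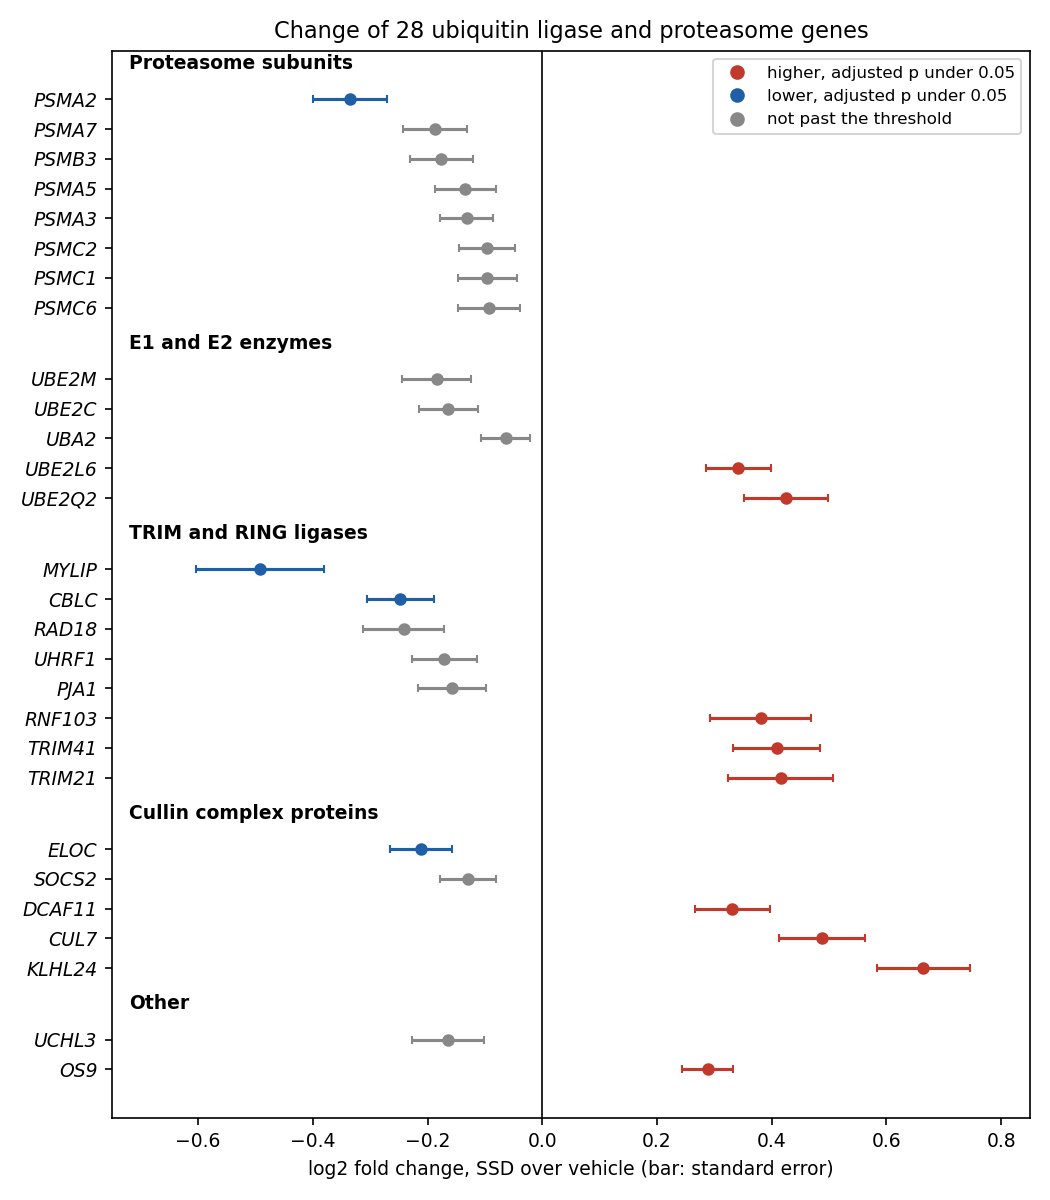
Log2 fold change of SSD over vehicle (horizontal axis) with its standard error for 28 of the 29 members, ordered by role, from edgeR on 3 libraries per group; red points were called higher, blue points lower and grey points neither. All 8 proteasome subunits sit left of 0, and 3 of the 5 cullin complex members sit right of it.

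All 8 listed proteasome subunits had a negative log2 fold change, with a median of -0.13, and PSMA2 was the 1 subunit called lower, with 0 called higher, beside 18.4% and 32.3% of the table. The table's median was -0.14 and 64.8% of its genes were negative, so the size of this shift is that of the table. Against the vehicle mean, the median over the 8 subunits lay at -0.023, 0.0085 and 0.019 in the vehicle libraries and at -0.14, -0.14 and -0.13 in the SSD libraries, in log2 of scaled counts. Each SSD library thus lay below each vehicle library. The same held for the median over the whole table, whose genes were chosen by p between these libraries. It lay at -0.00064, -0.0047 and 0.0070 in the vehicle libraries and at -0.14, -0.16 and -0.075 in the SSD libraries.

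PSMA2 encodes an alpha subunit of the 20S core, and its gene lies at chr7:42916857-42932223 on the minus strand (GRCh38, GENCODE 29). Its level was 84.3, 86.9 and 98.7 TPM with vehicle against 74.0, 73.4 and 71.3 TPM with SSD. The groups did not overlap, and vehicle replicate 3 stood highest. The log2 fold change was -0.34 (SE 0.064, edgeR adjusted p = 0.0126). The call was lost without vehicle replicate 3 (-0.27, adjusted p = 0.0676), without SSD replicate 2 (-0.34, adjusted p = 0.0603), under DESeq2 size factors (adjusted p = 0.0555) and with limma on log2(TPM + 1) (adjusted p = 0.0785). GENCODE lists 3 pseudogene copies of PSMA2, and its exons share bases with 1 gene on the same strand and 2 on the opposite strand, MRPL32 among them. The sources used here do not say whether reads were counted by strand, so reads of these genes cannot be told apart.

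The other 4 listed subunits of the 20S core, 3 alpha and 1 beta, differed by less than PSMA2 and did not pass the threshold. PSMA3 had 530.5, 496 and 520 TPM with vehicle against 482, 466 and 462 TPM with SSD, a log2 fold change of -0.13 (edgeR adjusted p = 0.218). PSMA7 had 498, 516 and 529 TPM against 493, 452 and 434 TPM (-0.19, edgeR adjusted p = 0.0998). PSMB3 had 268, 277 and 278 TPM against 263, 251 and 234 TPM (-0.18, edgeR adjusted p = 0.125). In these 3 genes every SSD library was below every vehicle library although none passed the threshold. PSMA7 passed without SSD replicate 1 (-0.24, adjusted p = 0.0242) and in DESeq2's Wald test (adjusted p = 0.0435). PSMA5 had 40.1, 43.3 and 49.6 TPM against 44.9, 42.3 and 44.0 TPM, so its groups overlapped in TPM but not in scaled counts, where the log2 fold change was -0.13 (edgeR adjusted p = 0.351). Its mean count per TPM, which follows the transcript length behind the estimate, was lower by 0.12 on the log2 scale under SSD. The groups overlapped in this ratio, with vehicle replicate 3 below every SSD library. Whether transcripts of other lengths were used was not tested.

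In estimated counts, the 3 listed ATPases of the 19S regulator had the smallest differences of the 8 subunits. In TPM the core subunit PSMA5 differed least, with -0.019 on the log2 scale. PSMC1 was at 399, 390 and 394 TPM with vehicle against 355, 378 and 381 TPM with SSD (log2 fold change -0.096, edgeR adjusted p = 0.985). PSMC2 was at 78.4, 75.9 and 79.6 TPM against 72.2, 70.9 and 72.3 TPM (-0.097, edgeR adjusted p = 0.816). PSMC6 was at 245, 206 and 219 TPM against 215, 218 and 214 TPM (-0.092, edgeR adjusted p = 1.00). TPM did not overlap between groups in PSMC1 and PSMC2, and overlapped in PSMC6, where vehicle replicate 1 stood apart from the other 5 libraries. Scaled counts overlapped in PSMC1 and PSMC6 but not in PSMC2. The direction of these ATPases depended on the scale between libraries: with DESeq2 size factors within the table their log2 fold changes were 0.00056 (PSMC1), 0.00017 (PSMC2) and 0.0037 (PSMC6). PSMC1 has 13 pseudogene copies in GENCODE, which can share reads with it.

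**Figure D2:**
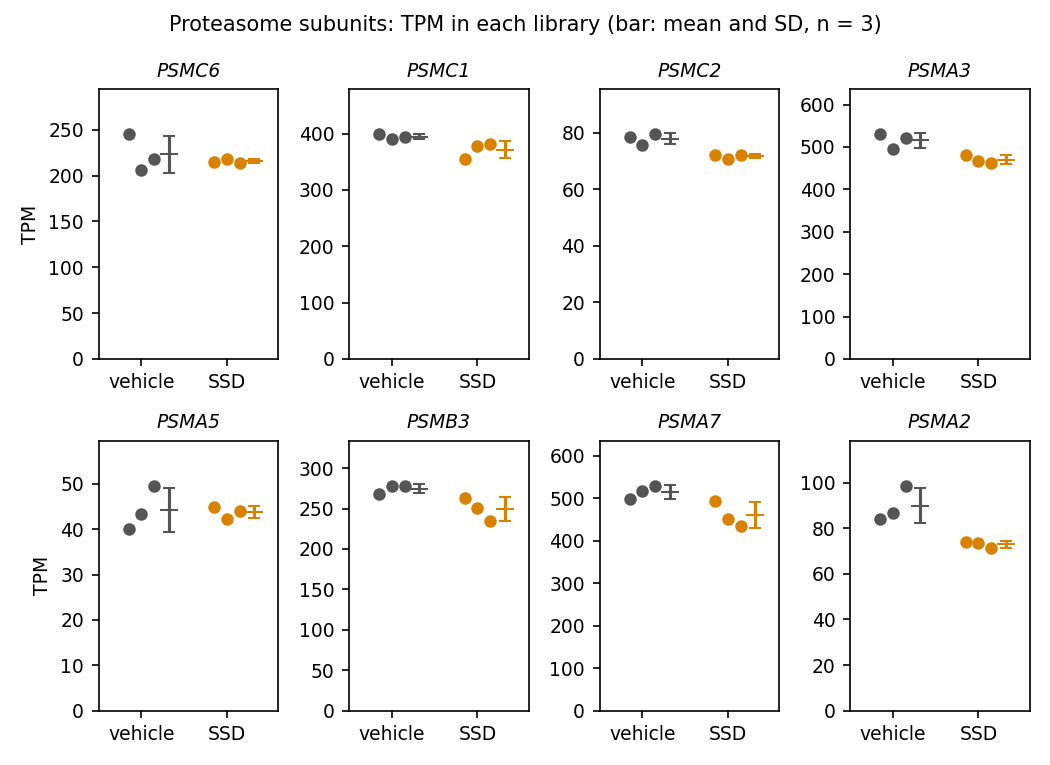
TPM (vertical axis, from 0) of the 8 listed proteasome subunits in the 3 vehicle and 3 SSD libraries, each point a library and each bar the group mean with its SD. PSMA2 falls from 89.9 ± 7.66 to 72.9 ± 1.40 TPM (SD, n = 3), whereas PSMA5 and PSMC6 overlap between groups.

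The sequence before the starts of core subunits is shown so that the letters found there can be read, from RefSeq (GRCh38.p14), 5′ to 3′ in the direction of the gene. Capitals mark matches, on either strand, to the letters searched: CCAAT (also in reverse, as ATTGG), then CACGTG, then TGACNNNGC (GCNNNGTCA in reverse), and then TTCNNNGAA. The PSMA3 stretch is chr14:58244593-58244830 (plus strand) and the PSMB3 stretch chr17:38752491-38752735 (plus strand), both ending before the annotated transcript. For PSMA2 the 30 bases at chr7:42932290-42932319 (minus strand) are given, because the bases before its start lie in an exon of MRPL32.
PSMA3: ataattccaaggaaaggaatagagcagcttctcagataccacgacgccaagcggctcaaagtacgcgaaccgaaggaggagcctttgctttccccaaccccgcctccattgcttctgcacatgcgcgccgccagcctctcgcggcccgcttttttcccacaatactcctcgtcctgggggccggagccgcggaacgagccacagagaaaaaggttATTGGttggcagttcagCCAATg
PSMB3: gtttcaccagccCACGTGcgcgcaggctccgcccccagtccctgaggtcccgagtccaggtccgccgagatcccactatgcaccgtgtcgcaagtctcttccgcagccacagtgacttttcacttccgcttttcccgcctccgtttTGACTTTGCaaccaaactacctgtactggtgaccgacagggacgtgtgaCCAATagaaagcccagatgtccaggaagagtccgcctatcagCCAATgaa
PSMA2: caagcctcgcTTCTTAGAActacaacaccc
CCAAT, the letters bound by the factor NF-Y, was found in the windows (250 bases before to 50 after the start) of PSMA2, PSMA3, PSMA5, PSMB3 and PSMC2. In all it was found in 12 of the 22 members with a window, against 34.6% of 35116 windows and 33.2% of those of the table's genes. Some members have more than 1 window and were counted if any matched, whereas these shares are of single windows. Counts of members and shares of windows are thus unlike measures. CACGTG, the E-box read by MYC among other factors, was found in 1 member (PSMB3), against 7.26% of all windows and 11.2% of those of the table's genes. TGACNNNGC, the core of the antioxidant response element, was found in 5 members (PSMB3, RNF103, UBE2Q2, UCHL3 and UHRF1), against 13.3% and 14.5%. TTCNNNGAA was found in 1 member (PSMA2), against 7.66% of all windows and 5.49% of those of the table's genes. A match describes these letters only. The windows of CUL7, SOCS2, UBE2C, PSMA7, ELOC and CBLC were not used here.

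The E1 and E2 enzymes divided by gene, with 2 of 5 called higher and 0 lower, beside 32.3% and 18.4% of the table. UBE2L6, an interferon-induced E2 that also carries the ubiquitin-like protein ISG15, is at chr11:57551656-57568284 (minus strand). It had 76.9, 79.7 and 76.8 TPM with vehicle against 104, 99.7 and 95.7 TPM with SSD. Each SSD library was above each vehicle library by a margin wider than the spread within either group. The log2 fold change was 0.34 (SE 0.057, edgeR adjusted p = 0.00786), a 1.27-fold level, and the call held under every alternative run. UBE2Q2, an E2 at chr15:75843285-75901078 (plus strand), had 26.3, 22.6 and 23.8 TPM against 28.8, 31.0 and 33.1 TPM. Its groups did not overlap, and the log2 fold change was 0.43 (SE 0.073, edgeR adjusted p = 0.00855). Without vehicle replicate 2 the adjusted p was 0.0542, with limma on log2(TPM + 1) it was 0.0912, and GENCODE lists 8 pseudogene copies.

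UBE2C, the E2 of the anaphase-promoting complex, was 1 of the highest members, at 621, 626 and 618 TPM with vehicle against 604, 572 and 528 TPM with SSD. Every SSD library was below every vehicle library, with SSD replicate 1 nearest to them, and the log2 fold change of -0.16 did not pass (edgeR adjusted p = 0.127) except without that library (-0.20, adjusted p = 0.0499). UBE2M, the E2 for the ubiquitin-like protein NEDD8 that activates cullins, had 264, 297 and 303 TPM against 248.9, 254 and 255 TPM. The groups did not overlap, vehicle replicate 1 was the vehicle library nearest to SSD, and the log2 fold change of -0.18 (edgeR adjusted p = 0.159) passed without it (-0.25, adjusted p = 0.0354). UBA2, a subunit of the E1 for SUMO, had 258, 265 and 264 TPM against 245, 270 and 254 TPM. Its groups overlapped in TPM, and its log2 fold change of -0.064 (edgeR adjusted p = 1.00) turned to 0.014 with TMM and 0.033 with DESeq2 size factors.

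Among the 8 TRIM and RING ligases, 3 rose and 2 fell (37.5% and 25.0%, near the 32.3% and 18.4% of the table). TRIM21, a cytosolic antibody receptor and ligase induced by interferon, lies at chr11:4384897-4393696 (minus strand). Its level was 16.8, 18.2 and 16.7 TPM with vehicle against 20.5, 24.8 and 23.1 TPM with SSD. SSD replicate 1 was the lowest treated library and still lay above all 3 vehicle libraries. The log2 fold change was 0.42 (SE 0.092, edgeR adjusted p = 0.0233). Without vehicle replicate 1, 2 or 3 the adjusted p was 0.0836, 0.0754 or 0.111, it was 0.147 without SSD replicate 2, and limma on log2(TPM + 1) gave 0.0764. Of the 22 members with a window, TRIM21 alone held GAAA, 2 bases of any kind and GAAA again (or the reverse complement). These letters, read by interferon-activated factors, were held by 3.57% of all windows and 5.33% of those of the table's genes. Shown here are 30 bases just after the RefSeq start of TRIM21, at chr11:4393663-4393692 (minus strand, GRCh38.p14), with the overlapping pair of matches in capitals.
TRIM21: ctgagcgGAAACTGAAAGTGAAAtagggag

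TRIM41, a nuclear and cytoplasmic RING ligase at chr5:181222499-181235809 (plus strand), was at 13.99, 12.8 and 13.9 TPM with vehicle against 18.3, 18.0 and 18.2 TPM with SSD. The treated libraries were almost level with each other and well clear of vehicle. SSD over vehicle gave a log2 fold change of 0.41 (SE 0.075, edgeR adjusted p = 0.0113), with the call lost without vehicle replicate 2 (adjusted p = 0.0777). RNF103, a RING ligase of the endoplasmic reticulum membrane at chr2:86603393-86623866 (minus strand), was at 12.7, 14.4 and 10.6 TPM against 13.8, 17.0 and 20.2 TPM. Its TPM groups overlapped, since SSD replicate 1 was below vehicle replicate 2 (exact two-sided permutation test, p = 0.2), but scaled counts did not overlap and gave 0.38 (SE 0.088, edgeR adjusted p = 0.0305). That call was lost with limma on log2(TPM + 1) (adjusted p = 0.372) and without vehicle replicate 1, 2 or 3 (0.110, 0.102 and 0.124) or SSD replicate 2 or 3 (0.160 and 0.0662). A same-strand readthrough transcript with CHMP3 shares exons with RNF103, so reads of the pair cannot be told apart. TRIM41 has 2 opposite-strand genes that overlap its exons and RNF103 has 1.

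MYLIP showed the largest fall among the members. It encodes a RING ligase that sends the LDL receptor to degradation and is itself a target of the sterol-sensing LXR receptors, and it lies at chr6:16129125-16148248 (plus strand). Vehicle libraries held 11.1, 10.5 and 10.7 TPM and SSD libraries 6.67, 7.39 and 8.89 TPM. The vehicle libraries were tightly grouped and all above the SSD libraries, which spread more widely. Its log2 fold change was -0.49 (SE 0.112, edgeR adjusted p = 0.0272), so that its level fell by 28.9%. With a mean of 327 counts it was the least counted member, and its call was lost without vehicle replicate 1, 2 or 3 (adjusted p = 0.105, 0.102 and 0.0920), without SSD replicate 1 or 2 (0.0794 and 0.141) and in limma's test of log2(TPM + 1) (0.0802). Its log2 fold change ran from -0.62 (without SSD replicate 3) to -0.41 (without SSD replicate 1) when single libraries were left out. The 250 bases before its RefSeq start, at chr6:16128836-16129085 (plus strand, GRCh38.p14), hold 2 ATTGG matches, shown in capitals, and none of the other letters searched.
MYLIP: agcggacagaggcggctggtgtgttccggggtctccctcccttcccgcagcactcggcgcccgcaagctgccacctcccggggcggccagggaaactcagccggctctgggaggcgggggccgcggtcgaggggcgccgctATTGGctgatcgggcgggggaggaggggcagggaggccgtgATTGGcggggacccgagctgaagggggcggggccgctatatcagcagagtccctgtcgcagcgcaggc

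CBLC, an epithelial member of the CBL ligases of receptor tyrosine kinases, lies at chr19:44777869-44800652 (plus strand). It had 108, 108 and 116 TPM with vehicle against 97.4, 95.6 and 87.4 TPM with SSD, with no overlap. Its fitted log2 fold change was -0.25 (SE 0.058, edgeR adjusted p = 0.0315). It was no longer called under each of the 3 other scales (TMM adjusted p = 0.399, DESeq2 size factors 0.601, library size alone 0.174), with limma on log2(TPM + 1) (0.105), or without vehicle replicate 1, 2 or 3 (0.0613, 0.115 and 0.187) or SSD replicate 2 (0.119). RAD18, the ligase that marks PCNA at stalled replication forks, had 15.8, 14.8 and 14.9 TPM against 15.6, 12.4 and 13.6 TPM. Its TPM groups overlapped through SSD replicate 1, and its log2 fold change of -0.24 (edgeR adjusted p = 0.0949) passed without SSD replicate 3 (-0.28, adjusted p = 0.0369). UHRF1, a ligase that ties DNA methylation to histone ubiquitination, had 36.6, 39.6 and 40.5 TPM against 35.7, 34.1 and 33.2 TPM. These groups did not overlap, and the log2 fold change of -0.17 did not pass (edgeR adjusted p = 0.164). PJA1, a RING ligase, had 44.1, 39.7 and 45.7 TPM against 37.2, 39.1 and 41.0 TPM, an overlap, with -0.16 (edgeR adjusted p = 0.301).

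Cullin complex proteins held the members with the largest rises, and of these 5 genes 3 rose and 1 fell, beside 32.3% and 18.4% of the table. KLHL24, a BTB and Kelch-domain receptor for cullin-3 ligases known for its role in keratin turnover in skin, lies at chr3:183635568-183684477 (plus strand). It had 8.92, 6.32 and 8.25 TPM with vehicle against 12.3, 12.5 and 15.1 TPM with SSD. Every SSD library exceeded every vehicle library, while vehicle replicate 2 was low and SSD replicate 3 high within their groups. edgeR put the log2 fold change at 0.66 (SE 0.081, edgeR adjusted p = 0.00264), a 1.59-fold level, and the call held in every alternative that kept the gene (its mean of 495 counts lay under the minimum of 500 in 1 of them). In TPM the group means, 7.83 ± 1.35 and 13.3 ± 1.55 (SD, n = 3), differed by 0.76 on the log2 scale. The mean count per TPM of KLHL24 was lower by 0.11 on that scale under SSD, which rested on vehicle replicate 2. The scaled ratio was 45.1, 60.7 and 46.2 with vehicle against 47.5, 47.5 and 44.6 with SSD. CUL7, the scaffold of an atypical cullin ligase, lies at chr6:43037617-43053945 (minus strand) and had 8.49, 8.39 and 9.65 TPM against 11.5, 12.3 and 11.1 TPM. Its groups were well apart. Its log2 fold change was 0.49 (SE 0.075, edgeR adjusted p = 0.00550), kept without any 1 library and lost with limma on log2(TPM + 1) (adjusted p = 0.0918), and KLC4 overlaps its exons on the opposite strand.

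DCAF11, a WD40 substrate receptor of the cullin-4 ligases at chr14:24114195-24125242 (plus strand), had 48.5, 46.1 and 55.2 TPM with vehicle against 60.7, 61.2 and 80.9 TPM with SSD. SSD replicate 3 stood well above the rest, but the other SSD libraries were above vehicle too. In the fit the log2 fold change came to 0.33 (SE 0.065, edgeR adjusted p = 0.0141). Without vehicle replicate 1, 2 or 3 the adjusted p was 0.0585, 0.0578 or 0.0689, and with limma on log2(TPM + 1) it was 0.138. Its exons overlap 1 gene on the same strand and NRL on the opposite strand. ELOC, the elongin C adaptor of cullin-2 and cullin-5 ligases, moved the other way, with 117, 125 and 127 TPM against 99.0, 107 and 114 TPM. The groups did not overlap, although SSD replicate 3 came near the lowest vehicle library. The log2 fold change of -0.21 was at the edge of the threshold (SE 0.054, edgeR adjusted p = 0.0488). It was lost under the 3 other scales (TMM adjusted p = 0.441, DESeq2 size factors 0.981, library size alone 0.248), with limma on log2(TPM + 1) (0.233), and without vehicle replicate 1, 2 or 3 (0.163, 0.162 and 0.166) or SSD replicate 1 or 2 (0.0631 and 0.276), and 32 pseudogene copies can share its reads. SOCS2, a SOCS-box receptor that joins cullin-5 and restrains growth hormone signalling, had 130.5, 118 and 116 TPM against 117, 114 and 121 TPM, overlapping groups, with -0.13 (edgeR adjusted p = 0.303).

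**Figure D3:**
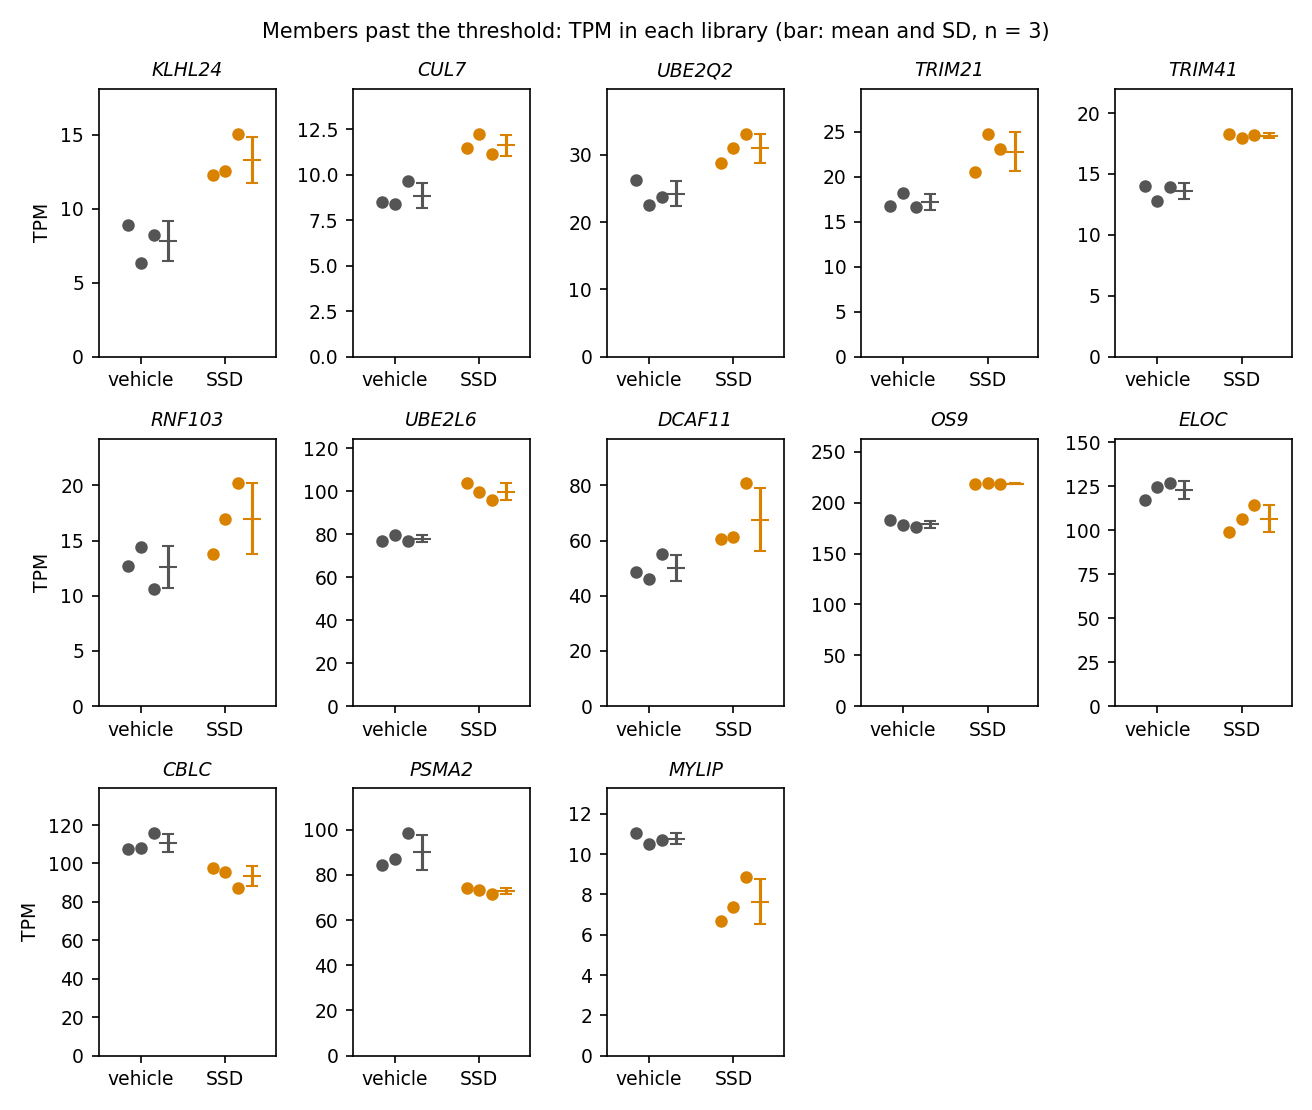
TPM (vertical axes, from 0) of the 13 called members in the 3 vehicle and 3 SSD libraries, each point a library and each bar the group mean with its SD. Of these, RNF103 has overlapping groups, and DCAF11 has 1 SSD library, at 80.9 TPM, well above the others.

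Of the remaining members, OS9 was the most precisely measured rise. OS9 is a lectin of the endoplasmic reticulum that delivers misfolded glycoproteins to a membrane ligase, and its gene lies at chr12:57693955-57721557 (plus strand). It had 183, 178 and 176 TPM with vehicle against 218, 219 and 218 TPM with SSD. The treated libraries were almost equal and all above vehicle. SSD over vehicle gave a log2 fold change of 0.29 (SE 0.045, edgeR adjusted p = 0.00571), a 1.22-fold level, and the call held under every alternative run. UCHL3, a deubiquitinating enzyme that also acts on NEDD8, had 163, 164 and 153 TPM against 137, 146 and 151 TPM, groups that lay close without overlap, and its -0.16 did not pass (edgeR adjusted p = 0.305).

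Over all 29 members, scaled counts did not overlap between groups in 26 and TPM in 21, against 86.5% and 76.4% of the table. The members not called had log2 fold changes from -0.24 (RAD18) to -0.064 (UBA2), and none of them was positive. Of all 387 genes listed with a positive log2 fold change, 355 were called, against 202 of the 712 with a negative one. Uncalled genes were thus mostly negative throughout, and the lack of a positive uncalled member is no result about the members. An exact two-sided permutation test over 3 against 3 libraries cannot go below p = 0.1, which each called member other than RNF103 reached in TPM. In bulk RNA, fewer cells with a transcript and less transcript per cell cannot be told apart.

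The direction of change went with the level of the gene. The 9 members with a positive log2 fold change had a median level of 20.01 TPM over the 6 libraries (from 10.2 to 199) and a median length in the table of 2970 bases. The 20 members with a negative one had a median of 136 TPM and a median length of 1583 bases. The same order held in the table as a whole, where positive genes had a median of 27.5 TPM and 4104 bases and negative genes 85.0 TPM and 2374.5 bases. This order is thus not particular to the members, and its cause was not tested. Mean estimated lengths differed between groups by more than 0.1 on the log2 scale in 4 members, KLHL24, PSMA5 and RAD18 among them, against 10.6% of the table. In these named genes the libraries of both groups overlapped in estimated length.

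**Figure D4:**
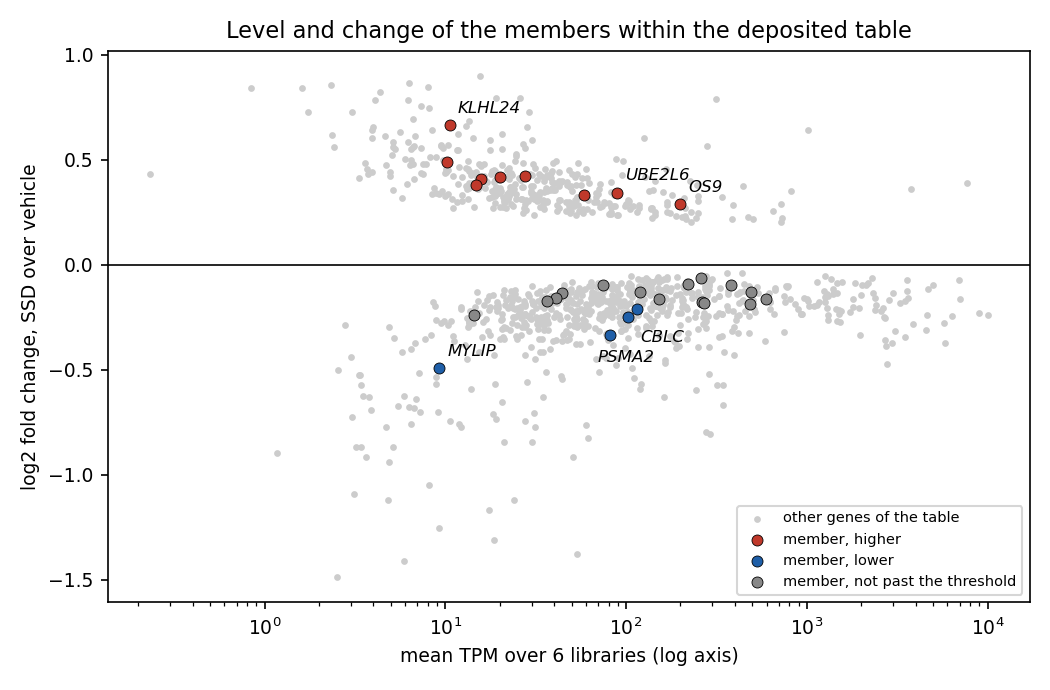
Mean TPM over the 6 libraries (horizontal log axis) against the log2 fold change of SSD over vehicle (vertical axis) for 28 members (large points, coloured by call) and the other genes of the table (grey). Called rises lie between 10.2 and 199 TPM, and most negative members lie at higher levels and close to 0.

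Related genes outside the members were read from lists of the pathway. Of 25 interferon-induced genes of the ubiquitin system, the table holds 8, and all 8 rose (median log2 fold change 0.42), against 32.3% of the table. A gene needed a small p between these groups to be in the table, where 355 of 387 positive genes were called. The list was also chosen with earlier results of these data known. This count therefore describes the listed genes and is no test of an interferon response. Besides UBE2L6 and TRIM21 they are USP18, the protease that removes ISG15, TRIM38, DTX3L and its partner PARP9, RNF213 and XAF1. USP18 had 18.3, 21.3 and 20.3 TPM with vehicle against 29.8, 27.9 and 28.7 TPM with SSD. Its groups were far apart, and its log2 fold change was 0.50 (SE 0.082, edgeR adjusted p = 0.00734). RNF213, a giant RING ligase, had 32.3, 27.7 and 31.0 TPM against 38.6, 38.2 and 43.7 TPM, again without overlap (0.40, edgeR adjusted p = 0.00457). The list's count moved with single libraries, as did the share of the table called higher: 3 of the 8 were called without vehicle replicate 2 or vehicle replicate 3 (beside 10.0% and 12.2% of the table), 4 without SSD replicate 2 (15.7%), and 6 without vehicle replicate 1 or SSD replicate 3 (24.9% and 29.1%). Limma's test of log2(TPM + 1) called 2 of them (10.4%). The other 17 listed genes were not analysed here.

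Of 76 deubiquitinating enzymes the table holds 4 and 1 rose, beside 32.3% of the table. USP22, the deubiquitinase of the SAGA complex, had 74.8, 76.5 and 76.5 TPM with vehicle against 87.4, 91.1 and 90.2 TPM with SSD. Both groups were tight and apart (log2 fold change 0.24, SE 0.044, edgeR adjusted p = 0.0106), and the call was lost without vehicle replicate 2 (adjusted p = 0.0661) or SSD replicate 2 (0.0653). It was also lost with limma on log2(TPM + 1) (adjusted p = 0.0643) and in edgeR with a block on the replicate number (adjusted p = 0.0536). Of 16 genes for ubiquitin and ubiquitin-like proteins the table holds 3, and 2 fell, beside 18.4% of the table. FAU, whose ubiquitin-like part is fused to a ribosomal protein, had a log2 fold change of -0.21 (edgeR adjusted p = 0.0380), and UBL5 one of -0.35 (edgeR adjusted p = 0.0440). Neither was called under the other 3 scales, nor without vehicle replicate 1, vehicle replicate 2, vehicle replicate 3 or SSD replicate 2, where the adjusted p of FAU ran from 0.0579 to 0.268 and that of UBL5 from 0.0706 to 0.231. FAU also missed the threshold without SSD replicate 1 (adjusted p = 0.125). Of 42 genes for 26S subunits, assembly and transcription the table holds 11, of which 8 are members, with 0 higher and PSMA2 as the 1 lower, beside 32.3% and 18.4% of the table.

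The scale between libraries moved all members together. Relative to the scale used here, TMM raised the table's median log2 fold change by 0.076, DESeq2 size factors by 0.095 and library size alone by 0.058. The members' median was then -0.055, -0.035 and -0.073. All 9 rises were called under these 3 scales, against 35.0%, 35.2% and 35.1% of the table. Fewer falls were called: 2 members were lower with TMM, 1 with DESeq2 size factors and 2 with library size alone. These counts stand against 7.92%, 7.83% and 11.5% of the table. The 3 scales were set within a table chosen for change, in which 64.8% of genes were negative. They raise the log2 fold changes together, which keeps rises and loses falls, so they cannot check the calls in either direction. Limma on log2(TPM + 1) called 4 members higher and 0 lower, against 10.4% and 6.82% of the table.

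**Figure D5:**
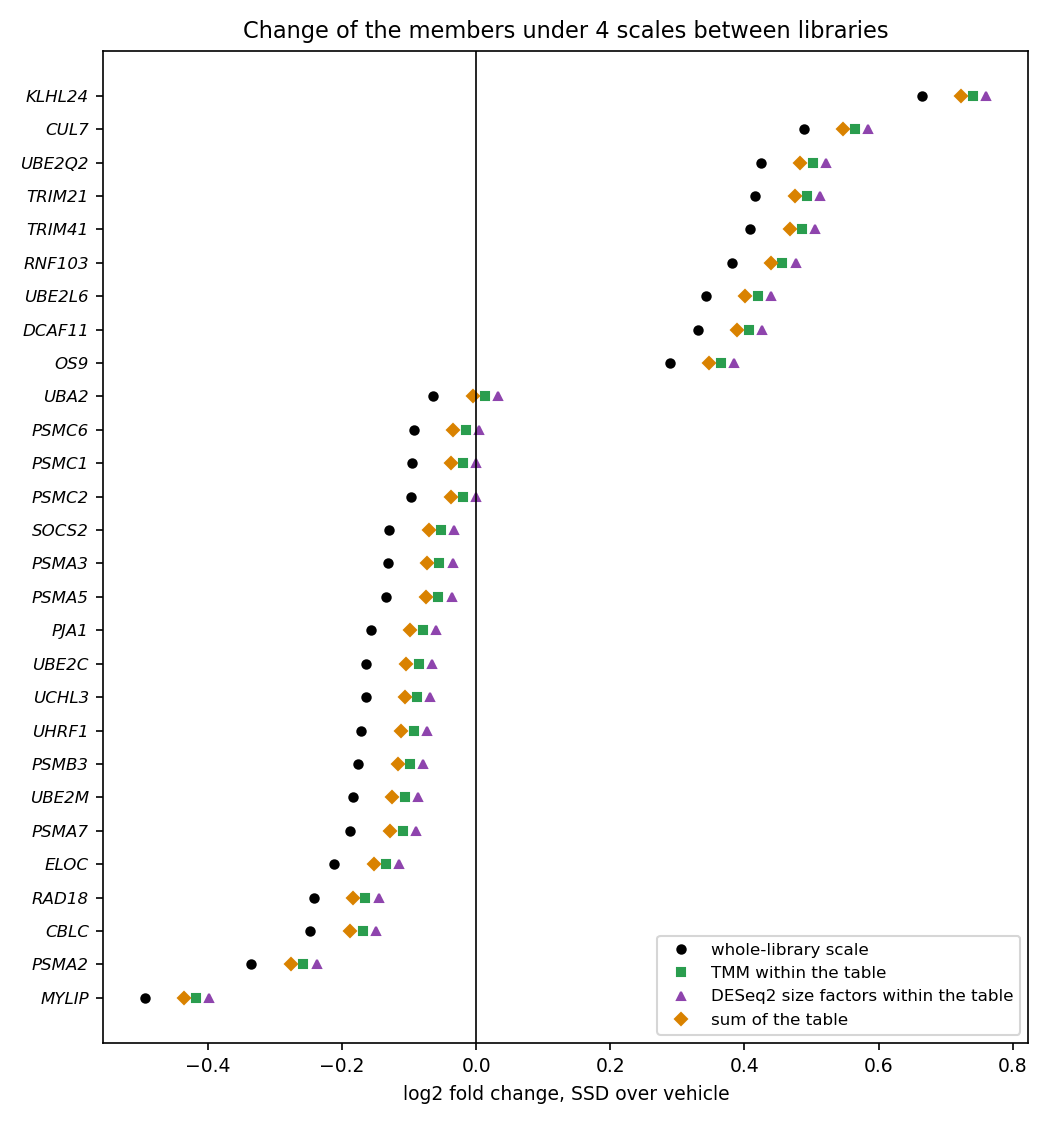
Log2 fold change of SSD over vehicle (horizontal axis) of 28 members under the 4 scales between libraries, each marker a scale. The scales shift each of them by about the same amount, and for UBA2 and the 3 PSMC genes some markers lie right of 0.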

How the data were processed

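RNA-seq of 6 AGS libraries was used, with groups taken from the sample labels. Estimated counts per gene were deposited by the authors (33.5% not whole) and were rounded. The TPM values, also deposited, were computed by the authors across each whole library. The notes of the submitters name GRCh38.p13, and the aligner and counting program are not given in the sources used here. The deposited table holds 1099 genes. Its fold changes were not used, and its p-values and adjusted p-values, also deposited by the authors, served only to find that 11289 genes had been tested.

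Counts were tested with edgeR 4.0.16 (quasi-likelihood test, filterByExpr, R 4.3.3), with the library scale taken as the median over genes of count divided by TPM. Genes outside the table were taken as having larger p in the Benjamini-Hochberg adjustment, and a call needs an adjusted p under 0.05. Both the members and the lists were chosen with earlier results of these data known. Alternatives were TMM, library size alone, size factors of DESeq2 1.42.0 and its Wald test, no filter, a mean of at least 500 counts, leaving out each library, a block on the replicate number, limma 3.58.1 on log2(TPM + pseudocount) with 1 or 0.1, and adjustment over the table alone or over 20000 genes. Named by rule were members of the KEGG pathways, other called members, the highest member of each role and interferon-induced members, and the rest for completeness. The values of 1 member, which enters the counts and medians, are not reported here. Gene positions and overlaps came from GENCODE 29 (GRCh38) and sequences from RefSeq (GRCh38.p14), where 22 of 29 members matched. Scripts were tested on simulated data. No replicate pair agreed within sampling noise (chi-square per degree of freedom from 4.59 to 15.3).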

Additional observations from a re-analysis of the deposited data

How the results depend on the processing

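The table is a selection of changed genes with 3 libraries a group, and its total depth is not given. Of 488 recomputed member values, 399 kept their direction and their side of the threshold, 66 calls were lost, 18 were gained and 5 changed sign. OS9 and UBE2L6 were called in every alternative, and KLHL24 in every one that kept it. A mean of at least 500 counts kept 24 of the 29 members.

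Counts of members called higher (9) were 5 with a mean of at least 500 counts and 4 with limma at either pseudocount, and ran from 4 (without vehicle replicate 2) to 9 without single libraries. Members lower (4) were 2 with TMM, 1 with DESeq2 size factors, 2 with library size alone, 2 with at least 500 counts, 0 with limma, 16 with adjustment over the table alone and 2 over 20000 genes, and ran from 0 (without vehicle replicate 3 or SSD replicate 2) to 5 without single libraries. Proteasome subunits lower (1) were 0 with DESeq2 size factors, 2 with the Wald test, 0 with limma and 5 over the table alone, and ran from 0 (without vehicle replicate 3 or SSD replicate 2) to 2 (without SSD replicate 1). In the whole table, genes higher (355) were 114 and 115 with limma at a pseudocount of 1 and of 0.1, and ran from 110 (without vehicle replicate 2) to 379, with 134 without vehicle replicate 3 and 172 without SSD replicate 2. Genes lower (202) were 87 with TMM, 86 with DESeq2 size factors, 126 with library size alone, 75 and 73 with limma and 583 over the table alone, and ran from 60 (without vehicle replicate 2) to 313 (without SSD replicate 3), with 72 without vehicle replicate 3 and 73 without SSD replicate 2.

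Median log2 fold changes with TMM, DESeq2 size factors and library size alone were -0.055, -0.035 and -0.073 for the members, -0.055, -0.036 and -0.074 for the proteasome subunits and -0.065, -0.045 and -0.083 for the table, and the members' median was -0.093 and -0.094 with limma. UBA2 turned to 0.014 with TMM and 0.033 with DESeq2 size factors, under which PSMC6 (0.0037), PSMC2 (0.00017) and PSMC1 (0.00056) turned too. Relative to the scale used here, TMM raised the table's median by 0.076 and DESeq2 size factors by 0.095. On the scale used here the log2 fold changes were -0.064 (UBA2), -0.092 (PSMC6), -0.097 (PSMC2) and -0.096 (PSMC1). A shift of that size carries them to about 0 or past it.

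Deviations of same-numbered libraries correlated at -0.23, -0.0097 and -0.032, and those of other pairs ran from -0.21 to 0.23. With 3 libraries a group, these values cannot show whether same-numbered libraries were paired. The sample labels share only a replicate number. With the replicate block, 6 members were higher and 0 lower, 0 proteasome subunits were lower, and 136 genes of the table were higher and 84 lower.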
